A study of Mus musculus with 4 samples.

Results

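Ccl2, Ccl7, Ccl8, Ccl12 and Pf4 are 5 chemokine genes among the 12596 genes of a single-cell table of colonic lamina propria macrophages, and they were taken as the rows of that table which map to these symbols. The 5 were chosen by their measured levels in these same cells, between cell clusters and between treatments, so that their values below are a description without a test. The cells came from 2 male wild-type C57/Bl6N mice gavaged with diesel exhaust particles (DEP, soot of diesel engines; 12 µg in 200 µL of PBS, mice 14 and 15) and 2 gavaged with PBS alone (mice 2 and 3), on 5 days per week over about 6 months. Cd11b+ lamina propria cells that carried Ly6c2, Cd64 or both were sorted in a single batch and loaded with 1 well per mouse, so that a well and a mouse cannot be told apart. Each RNA molecule is counted by its unique molecular identifier (UMI), and levels are given in CPM, a gene's UMIs per 1000000 UMIs of the cells that were summed.

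Chemokines are small secreted proteins that guide migrating leukocytes through G protein-coupled receptors. Ccl2, Ccl7 and Ccl12 are ligands of Ccr2, the receptor by which Ly6C-high monocytes leave the bone marrow and enter tissues such as the colon, where they mature into macrophages, lose Ly6C and gain complement C1q. Ccl8 belongs to the same family of monocyte chemoattractant proteins, and in mice it is known above all as a ligand of Ccr8. Pf4 (platelet factor, also called Cxcl4) is a CXC chemokine stored in platelet granules that binds heparin-like sugars, and it is also made by tissue macrophages.

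The 4 CC genes lay in 1 cluster on chromosome 11 of GRCm38 (mm10), all on the plus strand and with 3 exons each. Ccl2 was at chr11:82035571-82037453, Ccl7 at chr11:82045712-82047525, Ccl12 at chr11:82101845-82103400 and Ccl8 at chr11:82115185-82116799, a span of 81.2 kb. Pf4 was elsewhere, at chr5:90772435-90773383 on the plus strand, also with 3 exons. No stretch of 31 bases was shared between the main transcripts of any pair of the 5, so that the values of the family members do not rest on shared 31-base stretches.

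RefSeq promoters (GRCm38.p6) were matched by symbol for 3 of the 5 members, Ccl12, Ccl8 and Pf4, and not for Ccl2 and Ccl7. They are shown for the letters that the matched members carry near their starts, without a contrast to Ccl2 and Ccl7, whose promoters were not examined. The 250 bases before each annotated start are shown 5′ to 3′ on the plus strand, at chr11:82101595-82101844, chr11:82114935-82115184 and chr5:90772185-90772434. Capitals mark matches to TATAAA and to GAGGAA, the core letters of PU.1 sites, on either strand.
Ccl12: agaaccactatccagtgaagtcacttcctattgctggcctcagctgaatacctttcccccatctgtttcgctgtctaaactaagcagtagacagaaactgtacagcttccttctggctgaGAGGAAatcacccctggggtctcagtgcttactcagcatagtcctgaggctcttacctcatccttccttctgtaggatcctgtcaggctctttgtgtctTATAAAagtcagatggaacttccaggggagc
Ccl8: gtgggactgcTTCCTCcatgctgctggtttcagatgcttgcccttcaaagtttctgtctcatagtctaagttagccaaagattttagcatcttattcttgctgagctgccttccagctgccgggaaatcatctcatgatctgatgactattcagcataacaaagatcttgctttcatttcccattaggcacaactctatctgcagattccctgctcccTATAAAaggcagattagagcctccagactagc
Pf4: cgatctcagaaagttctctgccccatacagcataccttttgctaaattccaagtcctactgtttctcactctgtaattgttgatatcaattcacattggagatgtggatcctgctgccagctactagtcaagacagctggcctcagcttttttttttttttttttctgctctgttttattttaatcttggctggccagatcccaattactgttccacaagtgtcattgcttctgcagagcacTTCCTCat
TATAAA stood at −31 to −26 in Ccl12 and at −32 to −27 in Ccl8, counted from the annotated start, and was not in the Pf4 window. It occurred in 12.4% of 32851 promoter windows of this length. GAGGAA was in all 3 windows and in 23.3% of all windows. TGANTCA (AP-1), in 6.75% of windows, and TTCNNNGAA (gamma-activated sequence), in 7.02%, were in none of the 3, and no matches overlapped. Such matches describe letters only.

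The table held 189 to 334 cells and 747351 to 1349134 UMIs per mouse, with a median of 2758 to 4684 UMIs per cell. In 73 cells at least 3 marker genes of a single foreign class (B or plasma cells in 57) were detected and these cells were set aside, which left 870: 174 and 300 with DEP, 187 and 209 with PBS. A single barcode was shared by 2 libraries. Cells with 2 or more UMIs of Plac8, a gene of monocytes, were called Plac8-high (189 cells), and cells with at least 0.5% of their UMIs from C1qa, C1qb and C1qc were called C1q-high (718 cells). Both thresholds were passed by 54 cells, 135 were Plac8-high C1q-low, 664 were C1q-high Plac8-low and 17 passed neither. The Plac8-high cells numbered 50 and 72 with DEP and 34 and 33 with PBS.

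The classes carried the genes of their names. Ly6c2 had a UMI in 81 of the 135 Plac8-high C1q-low cells and 14 of the 664 C1q-high Plac8-low cells, and Ccr2 in 105 (77.8%) and 228 (34.3%). All 8 tested monocyte markers were higher in the former and all 12 tested resident macrophage markers in the latter, lists that include the genes of the thresholds. Resident macrophage markers summed to a median of 42.0 to 60.9 per 10000 UMIs in the Plac8-high C1q-low cells of each mouse, against 562 to 645 in C1q-high Plac8-low cells, whereas monocyte markers summed to 558 to 672 and 133 to 152. The classes are ranges of a measure and not closed cell types. Just under the C1q threshold, 6 cells with 0.4 to 0.5% held 11 UMIs of Ccl2, 1 of Ccl7, 0 of Ccl12, 0 of Ccl8 and 14 of Pf4, and just above it 6 cells with 0.5 to 0.6% held 23, 10, 13, 9 and 21. By Plac8, 4 C1q-low cells had 1 UMI and 7 had 2.

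The first comparison asked in which of the 2 classes each chemokine was expressed. Ccl2 was present in both at like shares of cells. At the C1q threshold used, Ccl12, Ccl8 and Pf4 were nearly confined to C1q-high cells and Ccl7 was mostly there. UMIs were summed per mouse and class and fitted by edgeR's quasi-likelihood method with the mouse as a block, which gave log2 differences (Plac8-high minus C1q-high) for 5538 genes. At a Benjamini-Hochberg adjusted p under 0.05, 8.67% of these genes were higher in Plac8-high C1q-low cells and 11.3% higher in C1q-high Plac8-low cells. Scaling to library size alone moved the median log2 difference of all genes from −0.10 to 0.17 and the share of calls that were higher in Plac8-high cells from 43.3% to 65.5%. All 5 members kept their direction under both. All 5 members met the requirement of detection in 5% of cells, Ccl12 and Pf4 only through the C1q-high cells, where they were high, so that no count of members is read against these shares. No p is given for the members, since their levels in clusters of these cells were known when they were chosen.

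Ccl2, the main monocyte attractant of the family, was the exception. Its level in Plac8-high C1q-low cells was 1439 and 1231 CPM in DEP mice 14 and 15 and 981 and 2435 CPM in PBS mice 2 and 3. In C1q-high Plac8-low cells it was 864 and 956 CPM with DEP and 593 and 721 CPM with PBS. The Plac8-high value was above the C1q-high value in each of the 4 mice. In CPM without scaling factors the lowest Plac8-high value (981) was just above the highest C1q-high value (956). The fit's scaling factors (TMM) were 1.05 to 1.22 in Plac8-high C1q-low and 0.88 to 0.92 in C1q-high Plac8-low libraries. With them the ranges of the classes overlap. These Plac8-high values rested on few cells. The 3 richest cells held 79 of 150 and 106 of 221 Ccl2 UMIs in DEP mice 14 and 15. In PBS mice 2 and 3 they held 43 of 49 and 115 of 216. The log2 difference, with the TMM factors, was 0.62 (SE 0.15), and 0.30 (SE 0.17) without PBS mouse 3, which had the highest level.

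The share of cells with Ccl2 did not follow the level. A UMI of Ccl2 was found in 59.4%, 43.5%, 43.8% and 56.0% of the Plac8-high C1q-low cells of mice 14, 15, 2 and 3, and in 54.9%, 54.8%, 50.3% and 52.9% of the C1q-high Plac8-low cells. Thinned to 1000 UMIs per cell, the shares were 43.3%, 31.2%, 31.5% and 47.2% against 36.4%, 37.3%, 32.6% and 31.6%. Neither class was above the other in every mouse. Ccl2 had a UMI in 21.4% of 14 cells with B or plasma cell markers and C1q under the threshold. Their median was 7074 UMIs per cell, against 2929 to 4833 by mouse in both classes, whose shares were all higher. The identity of these 14 cells was not tested, and 43 of the 57 cells with such markers passed the C1q threshold.

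Ccl7, a second Ccr2 ligand, was low in the monocyte-like cells of 3 mice. It reached 48.0 and 574 CPM in the Plac8-high C1q-low cells of DEP mice 14 and 15 and 40.0 and 33.8 CPM in PBS mice 2 and 3, against 1542, 2028, 1134 and 823 CPM in C1q-high Plac8-low cells. The log2 difference was −3.24 (SE 0.23), and −5.13 without DEP mouse 15. In that mouse, 92 of 103 Ccl7 UMIs of the class came from 3 cells and 70 from a single cell, which also held 39 UMIs of Ccl2, 4 of Plac8, 1 of C1q, 1 of Pf4 and none of Ccl12 or Ccl8. A Ccl7 UMI was found in 22 Plac8-high C1q-low cells (16.3%), beside 3 of the 14 deeper cells with B or plasma cell markers (21.4%). Of the 22, 14 also held Ccl2, among them all 5 of the PBS mice. Whether the low Ccl7 counts outside the few rich cells are expression or free RNA was not tested.

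Ccl12, the mouse-specific Ccr2 ligand, was almost missing from Plac8-high C1q-low cells. These 135 cells held 3 UMIs of Ccl12 in 422409 UMIs, 1 and 2 with DEP and 0 in both PBS mice. A count of 0 allows up to 3 UMIs, of 49967 UMIs in PBS mouse 2 and of 88708 UMIs (33.8 CPM) in PBS mouse 3. In C1q-high Plac8-low cells the level was 1042 and 1758 CPM with DEP and 1843 and 718 CPM with PBS. The pooled level there was 183 times that in Plac8-high C1q-low cells (95% exact interval 62.7 to 889, for counting error only).

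Ccl8 held 8 UMIs in the Plac8-high C1q-low cells, 1 and 5 in DEP mice 14 and 15 and 0 and 2 in PBS mice 2 and 3. Its level in C1q-high Plac8-low cells was 3068 and 1192 CPM with DEP and 840 and 778 CPM with PBS, with DEP mouse 14 far above the others. The pooled ratio of C1q-high to Plac8-high cells was 74.1 (37.6 to 172). Of the 259 Ccl8 UMIs in all 189 Plac8-high cells, 251 were in the 54 cells that also passed the C1q threshold.

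Pf4 held 6 UMIs in the Plac8-high C1q-low cells, 1 and 3 with DEP and 0 and 2 with PBS. In C1q-high Plac8-low cells it stood at 1031 and 1252 CPM with DEP and 807 and 1589 CPM with PBS, a pooled ratio of 86.1 (39.5 to 235). Since Pf4 is a platelet gene, platelet markers were read beside it: 2 of 11, Ppbp and Clec1b, had a row that was used, with 16 and 17 UMIs over the 870 cells, and the list summed to 4.05 to 22.2 CPM in the C1q-high cells of each mouse. The Pf4 level there was 793 to 1560 CPM. The other platelet markers had no row, which keeps the sum low whatever the cells held, and a platelet source was not tested. The shares of Plac8-high C1q-low cells with Ccl12 (2.22%), Ccl8 (5.93%) and Pf4 (4.44%) stood beside 7.14%, 21.4% and 0% of the 14 cells with B or plasma cell markers.

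**Figure D1:**
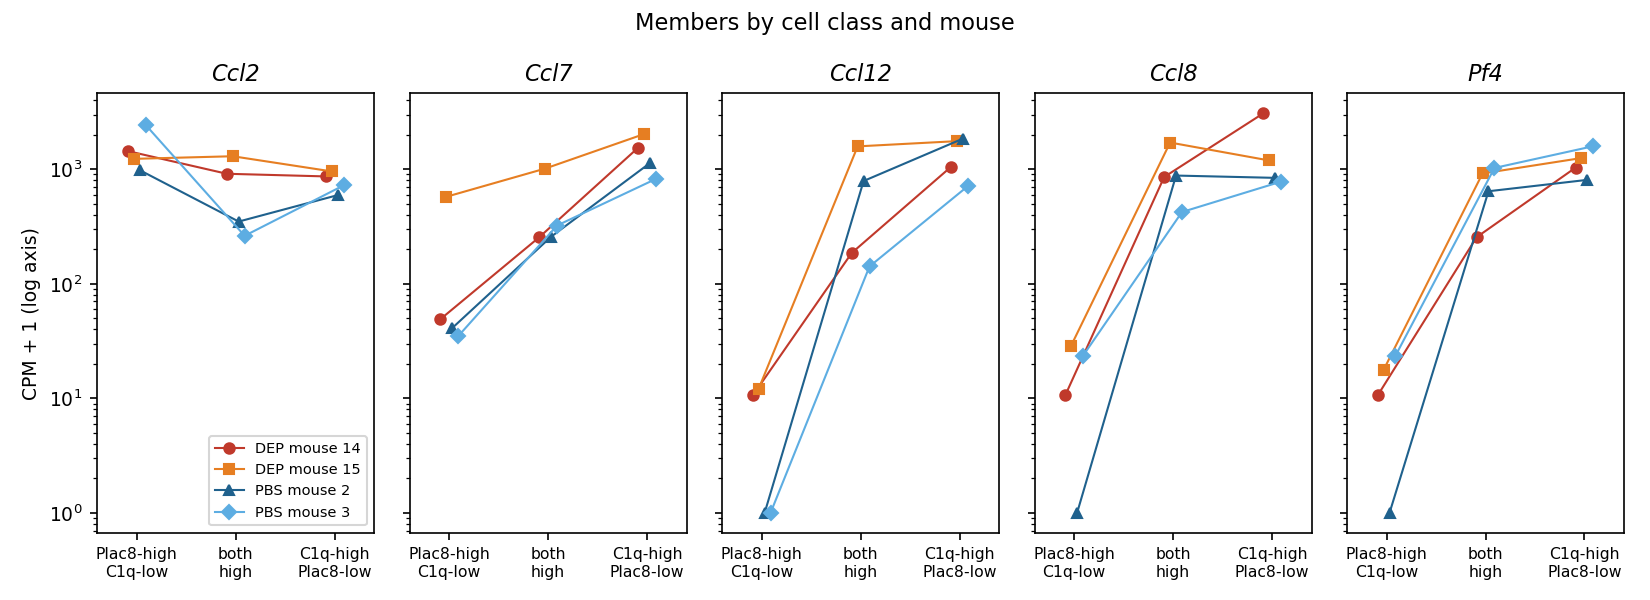
Level of each member by cell class (x axis) in CPM plus 1 on a log axis, 1 point per mouse, with lines joining the classes of a mouse. Ccl2 stays between 261 and 2435 CPM in all 3 classes, while Ccl12, Ccl8 and Pf4 lie at or under 27.9 CPM in Plac8-high C1q-low cells and at 140.7 CPM or more in the others.

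Cells above both thresholds held all 5 chemokines. Ccl12 stood at 185, 1582, 788 and 141 CPM in these cells of mice 14, 15, 2 and 3, Ccl8 at 854, 1709, 880 and 422 CPM, and Pf4 at 254, 918, 641 and 1025 CPM. With 8 to 18 cells per mouse these values rest on few cells. Within each of the 4 mice Ccl12 and Pf4 were lower than in the C1q-high Plac8-low cells, and so was Ccl7, at 254, 1013, 257 and 322 CPM. Ccl8 was lower in mice 14 and 3 and higher in mice 15 and 2. Ccl2, at 912, 1298, 348 and 261 CPM, was higher in both DEP mice and lower in both PBS mice.

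The same order appeared along the C1q share of a cell, in the cells of all 4 mice pooled and thinned to 1000 UMIs. From under 0.1% of UMIs (125 cells) over 0.1 to 0.5% (27 cells), 0.5 to 1% (51 cells) and 1 to 2% (437 cells) to 2 to 3% (220 cells), the share of cells with Pf4 went from 2.93% over 12.9%, 46.9% and 48.8% to 51.4%. Ccl12 went from 0.876% over 9.40%, 30.0% and 41.8% to 42.1%. The share with Ccl8 was 1.68%, 4.54%, 35.6%, 28.3% and 30.1%, and that with Ccl7 was 7.19%, 11.7%, 33.2%, 32.8% and 31.9%. All 4 had their largest step at the boundary of 0.5% in the pooled cells. Ccl2 had no such step, at 36.6%, 31.7%, 26.7%, 35.7% and 33.8%. By mouse the bins on either side of 0.5% held 2 to 12 and 9 to 18 cells. The shares with Ccl7, Ccl12, Ccl8 and Pf4 were higher above 0.5% than below it in DEP mouse 15 and both PBS mice. DEP mouse 14 differed, as Pf4 was lower above 0.5% than the 24.1% below it and Ccl12 went from 16.7% to 15.1%, while Ccl7 went from 20.0% to 28.6% and Ccl8 from 0 of 6 cells to 1 of 10. The remaining 10 cells, above 3%, are too few to place.

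**Figure D2:**
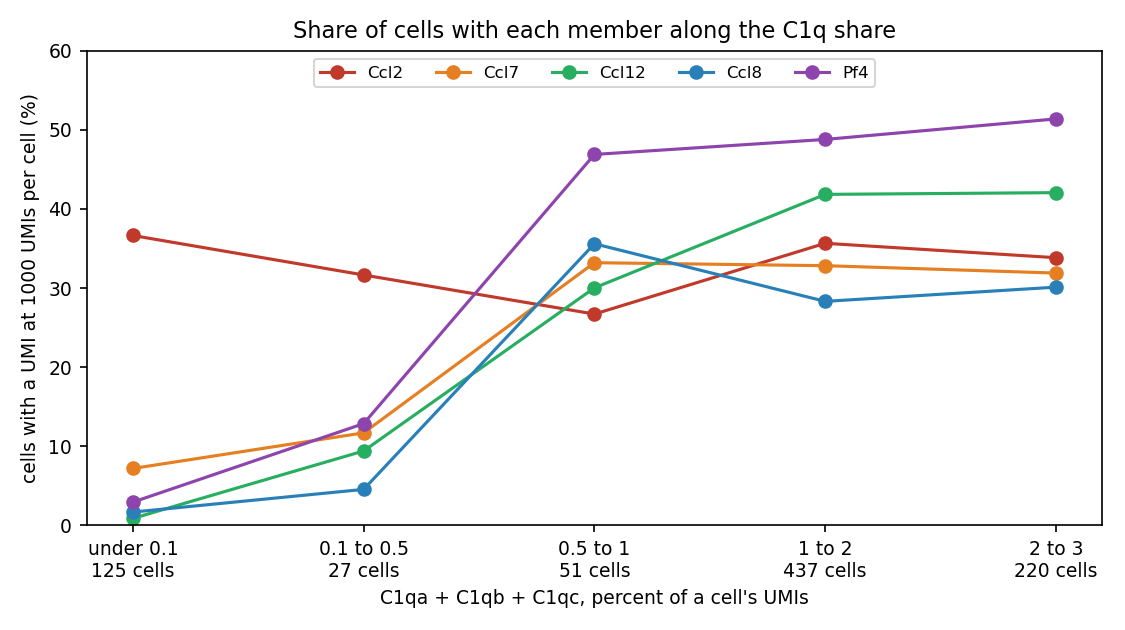
Share of cells with a UMI of each member after thinning to 1000 UMIs per cell (y axis, percent) by the share of C1qa, C1qb and C1qc among a cell's UMIs (x axis), pooled over the 4 mice. Ccl2 lies between 26.7% and 36.6% throughout, while the other members start at 7.19% or less and reach 30.1% to 51.4%.

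Monocyte-like cells with Ccl2 mostly carried it alone. Of 67 Plac8-high C1q-low cells with Ccl2, 44 (65.7%) had no UMI of the other members, with 84.2% and 55.6% in DEP mice 14 and 15 and 71.4% and 57.1% in PBS mice 2 and 3. Of 354 C1q-high Plac8-low cells with Ccl2, 7 (1.98%) had it alone, between 0% and 4.48% per mouse. All 5 members were found in 106 of 718 C1q-high cells (14.8%), with 18.6% and 11.7% with DEP and 13.8% and 16.7% with PBS, and in 0 of 135 Plac8-high C1q-low cells, which allows a share of up to 2.22%. That limit is on cells with a UMI of all 5 at this depth, and not on cells that express them. UMI ratios differed likewise: Ccl2 to Ccl12 was 636 to 3 in Plac8-high C1q-low cells and 2413 to 3948 in C1q-high Plac8-low cells.

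**Figure D3:**
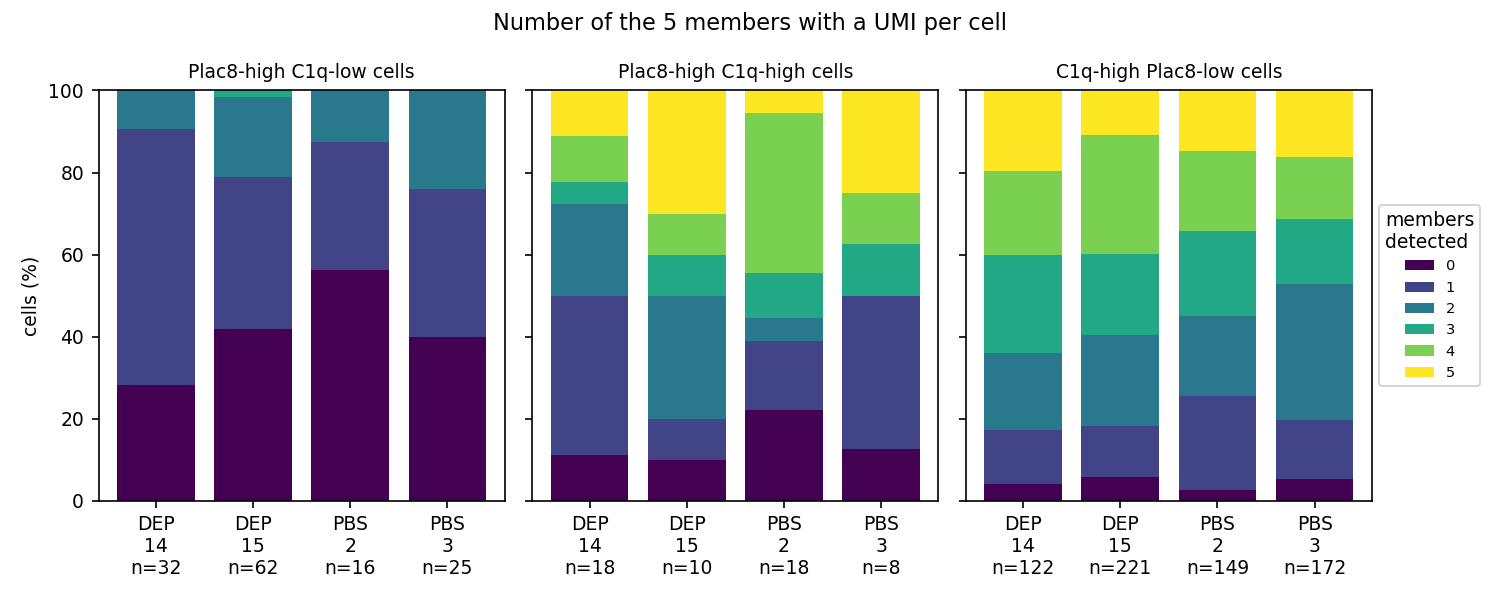
Share of cells (y axis, percent) with 0 to 5 of the members detected, for each mouse (x axis, with the number of cells) in the 3 classes. In Plac8-high C1q-low cells 40.0% had none and 42.2% had 1 member over all mice, and in C1q-high Plac8-low cells 4.67% had none and 14.8% had all 5.

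Within C1q-high cells the members formed no single block. Ccl2 and Ccl7, neighbours on chromosome 11, were the closest pair in every mouse, with Pearson's r of log2(UMIs per 10000 + 1) over cells of 0.55 in both DEP mice and 0.57 in both PBS mice. In thinned cells they were found together 1.67 to 1.95 times as often as the product of their shares. Of the cells with Ccl7, 72.0%, 76.3%, 72.2% and 77.0% in mice 14, 15, 2 and 3 also held Ccl2. Ccl12 and Ccl8, also neighbours, had r of 0.30 and 0.15 with DEP and 0.26 and 0.24 with PBS. The loosest pair by median was Ccl2 with Ccl8, with r of 0.08 and 0.15 with DEP and 0.21 and 0.30 with PBS. Ccl12 with Pf4 ranged from 0.04 to 0.30, with a ratio to the product of shares from 0.99 to 1.29. These correlations are across cells of 1 library each, which share depth and normalization, and cells are not replicates.

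**Figure D4:**
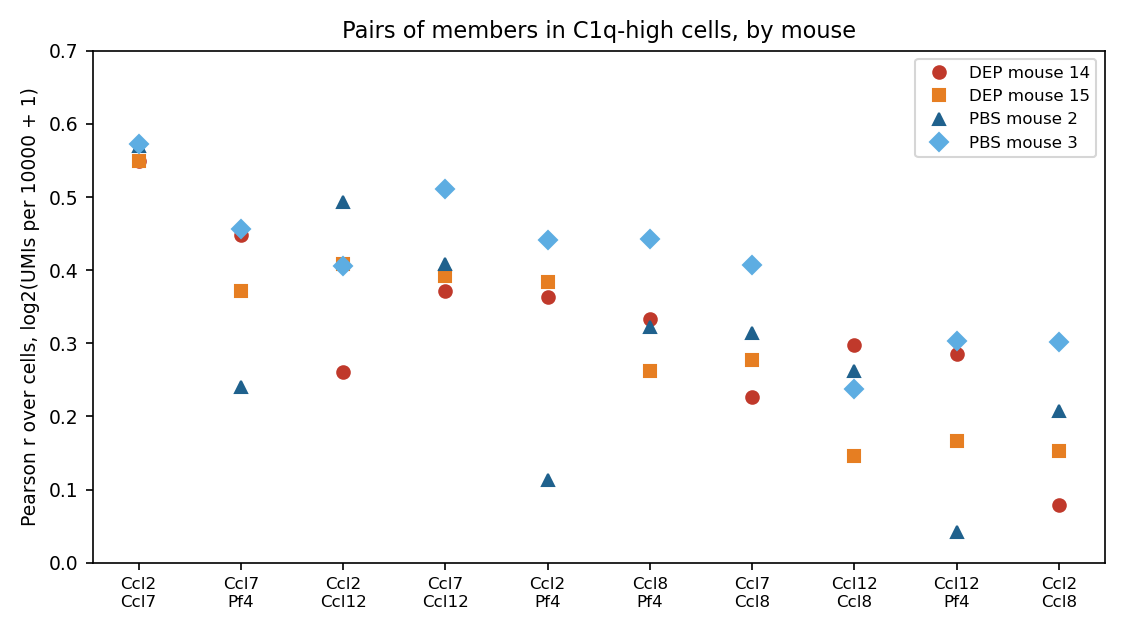
Pearson's r across C1q-high cells (y axis) for the 10 pairs of members (x axis, ordered by the median of the 4 mice), 1 point per mouse. Ccl2 with Ccl7 lies at 0.55 to 0.57 in all 4 mice, and the other pairs spread from 0.04 to 0.51.

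Few cells carried much of the Ccl8 and Ccl7. The 5% of C1q-high cells with the most UMIs of a gene held 46.7% to 63.2% of Ccl8 and 40.5% to 54.8% of Ccl7, depending on the mouse, against 26.7% to 38.5% of Pf4. For Ccl2 the range was 31.1% to 43.9% and for Ccl12 36.1% to 43.3%. The cell with the most Ccl8 held 197 UMIs, in DEP mouse 14, and that with the most Ccl7 held 145, in the same mouse.

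C1q-high cells with a member differed from those without it in quality measures too. The median mitochondrial share was higher in cells with Ccl2, Ccl12, Ccl8 or Pf4 in each of the 4 mice, and in cells with Ccl7 in 3 of them, with 1.51% against 1.63% in DEP mouse 15. For Ccl8 the medians with and without were 2.12% and 1.83%, 1.81% and 1.39%, 2.54% and 1.62%, and 2.73% and 1.87% in mice 14, 15, 2 and 3. Genes of the immediate early and dissociation stress list had a higher summed median in cells with Ccl2, Ccl7, Ccl12 or Pf4 in each mouse, and in cells with Ccl8 in 3 mice, with 244 against 254 per 10000 UMIs in DEP mouse 15. For Ccl2 these medians were 222 against 166 and 253 against 244 with DEP and 227 against 200 and 254 against 221 with PBS. Cells with Ccl12, Ccl8 or Pf4 were deeper in each mouse, for Pf4 by 3755 against 3583 UMIs in DEP mouse 15 and 5099 against 3336 in PBS mouse 3. Cells with Ccl7 were shallower in each mouse, and those with Ccl2 were deeper in all but DEP mouse 14. The part of depth, mitochondrial share or stress genes in these patterns was not tested.

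The second comparison set DEP against PBS, first in C1q-high cells. Ccl2, Ccl7 and Ccl8 lay higher in both DEP mice than in both PBS mice, and Ccl12 and Pf4 overlapped. Such a separation upwards was found for 17.5% of the 5676 genes tested in these cells and downwards for 18.3%, and nothing is read from the 3 of 5, as the members were selected on this contrast. Ccl8 stood at 2809 and 1227 CPM in DEP mice 14 and 15 and 843 and 759 CPM in PBS mice 2 and 3, a log2 difference of 1.31 (SE 0.27). The highest value was that of DEP mouse 14, and without that mouse the difference was 0.61. The spread within groups in these cells, as an SD in log2, was 0.60 for Ccl8, 0.32 for Ccl7 and 0.17 for Ccl2. It was 0.81 for Ccl12 and 0.53 for Pf4. Each SE of the fit is smaller, and is not a measure of the spread between mice.

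Ccl7 stood at 1392 and 1960 CPM in the C1q-high cells of the DEP mice and 1058 and 797 CPM with PBS (log2 difference 0.85, SE 0.18). Ccl2 stood at 870 and 979 CPM with DEP and 572 and 698 CPM with PBS (0.53, SE 0.15). Both were above the PBS range with either DEP mouse, and the Ccl7 difference was 0.56 without DEP mouse 15. Without the 5 cells of each mouse that held the most member UMIs, the differences were 0.61 for Ccl2, 0.88 for Ccl7 and 1.30 for Ccl8.

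Ccl12 had the widest spread within the groups, at 942 and 1746 CPM with DEP and 1752 and 689 CPM with PBS (0.14, SE 0.35). Its difference was −0.40 without PBS mouse 3 and 0.97 without PBS mouse 2. Pf4 was at 940 and 1229 CPM with DEP and at 793 and 1560 CPM with PBS (−0.13, SE 0.24), and its difference was −0.52 without PBS mouse 2 and 0.43 without PBS mouse 3. For both genes the DEP mice lay between the PBS mice.

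Shares of C1q-high cells moved less than levels. Ccl8 had a UMI in 55.0% and 39.4% of cells in the DEP mice and 46.1% and 40.6% with PBS, and in 38.9%, 26.6%, 31.6% and 23.3% of thinned cells, so that the groups overlapped. For Ccl7 the shares were 53.6% and 51.1% against 47.3% and 41.1%, but 32.6% and 36.0% against 34.6% and 26.3% once thinned. Ccl2 was found in 55.7% and 55.0% against 50.3% and 53.3%, and in 36.9% and 37.2% against 32.4% and 31.1% of thinned cells. Among cells with Ccl8 the median was 7 and 4 UMIs in the DEP mice and 3 and 4 with PBS.

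**Figure D5:**
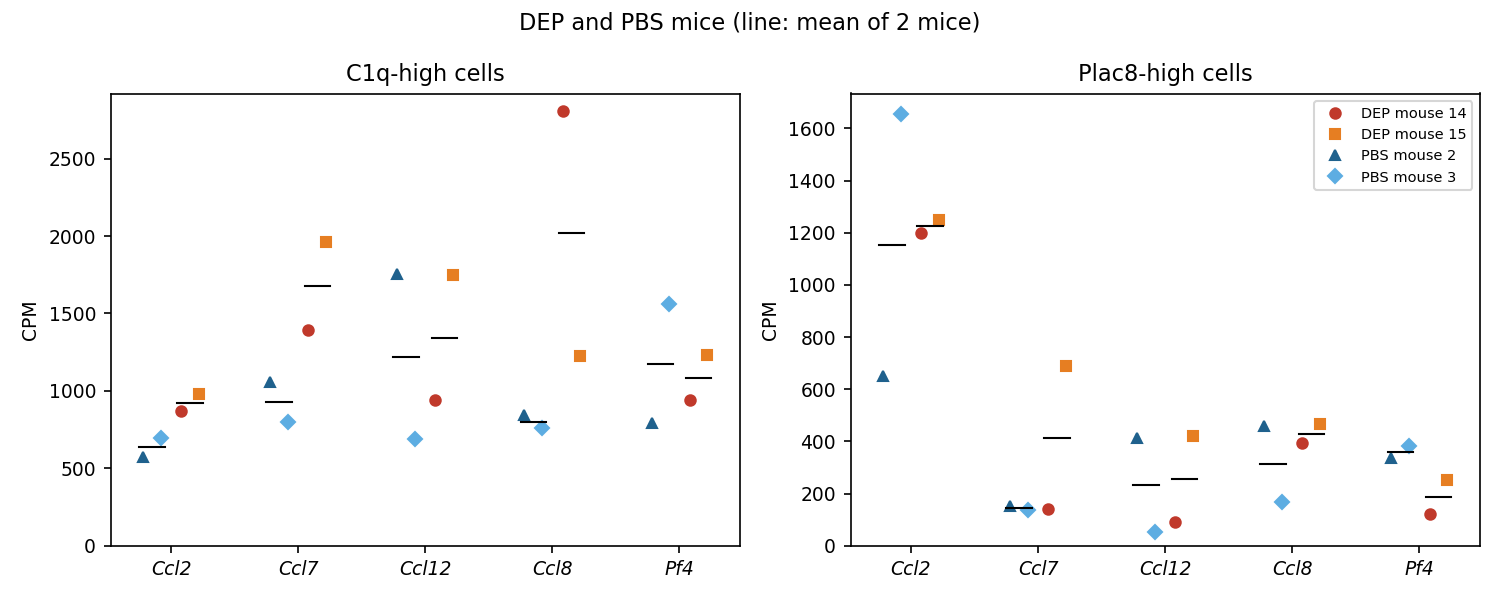
Level of each member in CPM (y axis) in C1q-high cells and in Plac8-high cells, 1 point per mouse, with a line at the mean of the 2 mice of a group. In C1q-high cells the DEP points lie above the PBS points for Ccl2, Ccl7 and Ccl8, and in Plac8-high cells they lie below them for Pf4.

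In all 189 Plac8-high cells the picture was different. This class was cut on UMIs of Plac8, whose own mean level within it was 4283 CPM with DEP and 2775 CPM with PBS. Which cells entered the class may thus differ with treatment and with depth, and the part of this in the values was not tested. Ccl2 stood at 1200 and 1248 CPM with DEP, between 651 and 1654 CPM with PBS, and its log2 difference was 0.06 (SE 0.29), with −0.43 without PBS mouse 2 and 0.89 without PBS mouse 3. Ccl7 was at 141 and 688 CPM with DEP and 153 and 137 CPM with PBS (1.53, SE 0.53), a difference of −0.04 without DEP mouse 15. Ccl8 was at 393 and 466 CPM against 459 and 166 CPM (0.49, SE 0.35), and its difference was −0.88 in thinned cells, −0.12 without PBS mouse 3 and 1.37 without PBS mouse 2. Ccl12 was at 89.1 and 420 CPM against 411 and 50.6 CPM (0.25, SE 0.65), and its difference ran from −1.28 without DEP mouse 15 to 2.36 without PBS mouse 2. The sign of these 4 differences thus hung on single mice. Pf4 alone did not overlap, at 121 and 251 CPM with DEP and 335 and 383 CPM with PBS (−0.94, SE 0.32), with −0.53 without DEP mouse 14 and −1.58 without DEP mouse 15. Both DEP mice were below both PBS mice for 16.8% of 5005 genes and above for 19.0%. Cells above both thresholds, which held 166 of the 172 Pf4 UMIs, were 18 of 50 and 10 of 72 Plac8-high cells in the DEP mice and 18 of 34 and 8 of 33 with PBS. Within the cells above both thresholds Pf4 stood at 254 and 918 CPM with DEP and 641 and 1025 CPM with PBS, so that the groups overlapped. The part of this mixture in the Pf4 values was not tested.

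Over all 870 cells, Ccl2 (log2 difference 0.41, SE 0.16), Ccl7 (0.77, SE 0.18) and Ccl8 (1.22, SE 0.29) were again above the PBS range in both DEP mice, a separation shared by 18.0% of 5492 genes, with 18.8% separated downwards. Without DEP mouse 14 the Ccl8 difference was 0.47, without DEP mouse 15 that of Ccl7 was 0.50, and without PBS mouse 2 that of Ccl2 was 0.19. In such sums a level per cell and the share of each class cannot be told apart. By edgeR 1 gene, Plac8, passed the adjusted threshold over all cells (0.0182% of those tested), 0 of 5676 did in C1q-high cells and 0 of 5005 in Plac8-high cells. At an unadjusted p under 0.05 there were 352, 318 and 287 genes, and DESeq2 called 1, 0 and 0.

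The other genes of the chemokine system came from a list of 51. Between the classes, 26 were tested, 5 were higher in Plac8-high C1q-low cells, 11 higher in C1q-high Plac8-low cells and 10 did not pass. Of 5 CC ligands, Ccl6 (log2 difference 1.96, SE 0.15) and Ccl9 (2.01, SE 0.16) were higher in Plac8-high cells, as Ccl2 was, and Ccl4 was higher in C1q-high cells (−1.28, SE 0.13), while Ccl3 (−0.17) and Ccl5 (−0.19) did not pass. Of 6 CXC ligands, the neutrophil attractants Cxcl1 (−3.36), Cxcl2 (−1.08) and Cxcl3 (−2.75) and the membrane-bound Cxcl16 (−2.99) were higher in C1q-high cells, and Cxcl9 (0.28) and Cxcl10 (0.14) did not pass. The median was −0.17 for the CC and −1.91 for the CXC ligands, beside −0.10 for all genes.

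The receptor of Ccl2, Ccl7 and Ccl12 stood on the side of the monocytes. Ccr2 was higher in Plac8-high C1q-low cells (log2 difference 1.78, SE 0.17), a gene of the monocyte marker list, whereas Ccr1 (−0.88), Cxcr4 (−0.996) and the fractalkine receptor Cx3cr1 (−1.71) were higher in C1q-high cells. The receptor list had a median of −0.996. Of 10 signalling genes, Gnb2 (0.65) and Rac2 (0.66) were higher in Plac8-high cells and Arrb2 (−1.43), a beta-arrestin, and Rgs1 (−3.73), a regulator of G protein signalling, in C1q-high cells. Of 4 decoy receptors none was tested. With DEP against PBS, 0 of 26, 29 and 25 genes of the list passed over all cells, in C1q-high cells and in Plac8-high cells. Among all genes 1 of 5492, 0 of 5676 and 0 of 5005 passed, so that nothing about the list is read from this.

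Regulators that can induce chemokines were read likewise. Of 10 tested between the classes, the interferon regulator Irf7 (log2 difference 2.39, SE 0.29) was higher in Plac8-high C1q-low cells, Il10 (−3.06, SE 0.47) was higher in C1q-high cells, and 7 did not pass, Tnf (−0.46), Il1b (−0.10) and Nfkbia (0.29) among them. Of 15 tested genes of the stress list, 6 were higher in C1q-high cells, led by Dnajb1 (−1.56) and Fosb (−1.37), and 9 did not pass. Its summed median ran from 169 to 278 per 10000 UMIs in the Plac8-high C1q-low cells of the 4 mice and from 202 to 253 in C1q-high Plac8-low cells. With DEP against PBS no gene of either list passed in C1q-high cells, where 0 of all 5676 genes did, so that nothing about the lists is read from it.

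The genes whose level followed each member most closely over all 870 cells were named by the mean r of the 4 mice among 3492 genes. Ccl2 was nearest to Marcksl1 (mean r 0.30), Ier3 (0.29) and Ccl9 (0.24) outside the 5. Ccl7 was nearest to Mt1, a metallothionein (0.35), the mannose receptor Mrc1 (0.33) and Igfbp4 (0.31), and Ccl12 to Ccl4 (0.35), C1qa (0.35) and C1qc (0.34). Ccl8 was nearest to Jund (0.34), the adhesion molecule Vcam1 (0.34) and Cd63 (0.32). Pf4 had the closest neighbours, the selenium carrier Selenop (0.49), Mrc1 (0.47) and C1qc (0.42). For every member but Pf4 another of the 5 was nearer than any of these: Ccl7 for Ccl2 (0.49) and Ccl12 (0.47), Ccl2 for Ccl7 and Pf4 for Ccl8 (0.40). Within the 718 C1q-high cells the order differed, with Jund (0.345) nearest to Ccl8, just ahead of Pf4 (0.340). There Pf4 was nearest to Mrc1 (0.38), Igfbp4 (0.35) and Selenop (0.34) outside the 5. Ccl12 was nearest to Ccl4 (0.32), Ccl3 (0.25) and Fcrls (0.25).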

How the data were processed

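Lamina propria cells of 2 DEP and 2 PBS mice were profiled with a 10x 3′ v2 kit. The authors aligned the reads to mm10 with Cell Ranger (STAR 2.6.1a in the submitters' processing notes), removed cells with few UMIs or genes or with extreme mitochondrial shares, stated that a doublet check marked no cell, and deposited raw UMI counts, whose column suffix gives the mouse. No doublet caller was run here.

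Counts were summed per mouse and class (CPM without further factors) and fitted and tested with edgeR 4.0.16 in R 4.3.3 (TMM, quasi-likelihood, genes found in 5% of cells and above 1 CPM in 2 or more libraries), with the mouse as a block between classes. DESeq2 1.42.0 was an alternative. SEs were derived from the F statistic of the fit. Those for DEP against PBS were smaller than the spread within groups for every member. Shares carry exact binomial intervals in Python 3.11.15 with scipy 1.17.1; these and count ratios cover counting error only. Positions and promoters came from Ensembl and RefSeq.

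The members, lists and named genes (every member, the 3 genes nearest to each, list genes past the threshold and a few near in role) were chosen with earlier results of these data known. Genes given as not passing, and the cells singled out for Ccl7, were chosen after their values were seen. Alternatives were other scalings, filters, thresholds, thinning and each mouse left out. In data simulated with 200 changed genes, 49.5% were recovered between classes, 69% over all cells, 70% in C1q-high and 32.5% in Plac8-high cells. Unchanged genes called numbered 2, 6, 7 and 4 in the same order. The changes put in had fixed sizes, larger than most DEP differences of the members, so that the rates hold for those sizes only. The labels name no separate batch, and the groups share no replicate number. Some genes of the lists are counted but not reported here by name.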

Additional observations from a re-analysis of the deposited data

Results flagged for a closer look

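Signal of all 5 members was present in the 73 cells left out as other cells, which enter none of the comparisons. These cells held 188 UMIs of Ccl2, 266 of Ccl7, 308 of Ccl12, 162 of Ccl8 and 354 of Pf4, above the limit of 3 UMIs that a count of 0 allows. Of the 73 cells, 46 passed the C1q threshold, and 57 had been left out by B or plasma cell genes. In the 14 of those 57 under the C1q threshold, Ccl12 had 2 UMIs, Ccl8 6 and Pf4 0. Groups of 2 mice were too small for a check of single outlying mice.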

How the results depend on the processing

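Between the classes every member kept its direction under all 14 alternatives. The Ccl2 difference (0.62) was 0.56 with DESeq2, 0.40 in cells thinned to 1000 UMIs and 0.30 without PBS mouse 3, and 0.91 with library size scaling alone, which was added after the data were seen. Counts of called genes between the classes were 1108, 610 with DESeq2 and 469 thinned, which tested 2074 genes, and 805 to 1014 with a mouse left out. For DEP against PBS over all cells the count was 1, 42 without a filter on low genes, 0 thinned and 9 to 38 with a mouse left out. In C1q-high cells it was 0, 1 with all deposited cells, 26 without the filter and 0 to 6 with a mouse left out. In Plac8-high cells it was 0, 2 with all deposited cells, 23 without the filter, 7 at 3 Plac8 UMIs and 2 to 17 with a mouse left out. The causes were not tested. Of 175 member differences between DEP and PBS, 162 moved by less than the spread within groups, and of 45 differences in shares 36 did. For some members that spread was wide, at 1.88 in log2 for Ccl12 in Plac8-high cells, so that a change of sign could fall within it. Leaving out the 5 cells per mouse with most member UMIs changed no member difference in Plac8-high cells. These counts are thus no measure of stability. The class sums of the 16 to 62 Plac8-high C1q-low cells per mouse held 49967 to 179526 UMIs, which limits what can be seen there.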

Other observations

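The 17 cells under both thresholds held 18 UMIs of Ccl2 in 7 cells, 4 of Ccl7 in 3, 24 of Ccl12 in 3, 12 of Ccl8 in 1 and 22 of Pf4 in 6. In this small remainder Pf4 was thus found in 35.3% of cells and Ccl2 in 41.2%. Among the CC ligands too rare to be tested between the classes, Ccl24, an eosinophil attractant, had 69 UMIs in 20 of the 870 cells, and Ccl17, a ligand of Ccr4, had 66 UMIs in 3 cells.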
